A study of Mus musculus with 16 samples.

Results

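The 6 genes described here are Enpp1, Enpp2, Enpp3, Enpp4, Enpp5 and Enpp6, the mouse ectonucleotide pyrophosphatase/phosphodiesterase genes of those names, taken by gene name from tables of 41325 genes. They were singled out with their raw counts in all 4 groups known, so their levels and fold changes are given as a description, with standard errors but without p-values. The cells were preadipocytes, precursors of fat cells, from wild-type C57Bl6/J mice, and they had been immortalized so that they keep dividing in culture. The groups were IL-13 pre-treated cells at day 6 of differentiation, untreated cells at day 6, IL-13 pre-treated cells at day 0 and untreated cells at day 0, each with 4 libraries. IL-13, a cytokine of type 2 immune responses, had been given for 16 h, and all groups share the strain, the genotype and the immortalized state. The labels do not say how the cells were immortalized, whether they are 1 clone, or whether the 4 libraries of a group are separate cultures, so the p-values given below for other genes rest on library-to-library spread, part or all of which may be technical.

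Enpp proteins sit in the cell membrane or are released from it, and cut phosphodiester and pyrophosphate bonds of nucleotides or of lipids outside the cell. Enpp1 splits ATP into AMP and pyrophosphate, restrains mineral deposition through that pyrophosphate, breaks down cyclic GMP-AMP (the messenger of the STING pathway) and can bind and inhibit the insulin receptor. Enpp3 also splits extracellular ATP and is known in humans as a surface marker of activated basophils and mast cells. Enpp2, or autotaxin, is secreted, is produced strongly by adipocytes, and makes the signalling lipid lysophosphatidic acid (LPA) from lysophosphatidylcholine. Enpp4 cleaves diadenosine triphosphate, Enpp6 releases choline headgroups from lysophospholipid and glycerophosphocholine and marks maturing oligodendrocytes, and Enpp5 is the member whose substrates are least settled.

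The members lie as 2 neighbouring pairs and 2 single genes (coordinates of GRCm38, mm10). Enpp1 (ENSMUSG00000037370, chromosome 10, 24637914 to 24712159) and Enpp3 (ENSMUSG00000019989, chromosome 10, 24772406 to 24842823) are both on the minus strand, 60246 bases apart. Enpp5 (ENSMUSG00000023960, chromosome 17, 44078813 to 44086567, plus strand) and Enpp4 (ENSMUSG00000023961, chromosome 17, 44096308 to 44105809, minus strand) face each other with their 3' ends across 9740 bases. Enpp2 (ENSMUSG00000022425) spans 54838901 to 54952892 on chromosome 15 and Enpp6 (ENSMUSG00000038173) 46986887 to 47096762 on chromosome 8. No 50-base stretch of any member's transcripts in GENCODE M21 occurs in another member. Between 0% and 0.865% of the stretches of Enpp1, Enpp3, Enpp4, Enpp5 and Enpp6 occur in transcripts of other genes, and 5.1% of those of Enpp2. The Enpp2 stretches are shared with 1 gene, and 5.97% of the Enpp2 exon bases overlap an antisense gene, Gm26684. The library kit keeps the strand, per the labels' protocols, but it is not stated that counting used it. Gm26684 is not among the 12 other genes counted within 500 kb of Enpp2. Its reads from the overlap may therefore have been counted as Enpp2.

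The RefSeq table of promoters (build GRCm38.p6) held 4 of the 6 members. The 250 bases before the start are shown for Enpp1 and Enpp3, neighbours that were both higher after IL-13, and for Enpp4, which was lower. All 3 are read from the minus strand, 5' to 3', and capitals mark the only match to a searched motif. They are chr10:24712160-24712409 for Enpp1, chr10:24836196-24836445 for Enpp3 and chr17:44105810-44106059 for Enpp4. The RefSeq start of Enpp3 lies 6628 bases inside the gene as the tables and GENCODE give it.
Enpp1: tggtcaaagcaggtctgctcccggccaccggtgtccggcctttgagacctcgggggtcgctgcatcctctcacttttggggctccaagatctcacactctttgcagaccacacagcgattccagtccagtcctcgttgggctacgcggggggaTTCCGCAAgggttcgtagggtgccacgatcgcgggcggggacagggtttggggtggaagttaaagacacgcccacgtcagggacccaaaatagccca
Enpp3: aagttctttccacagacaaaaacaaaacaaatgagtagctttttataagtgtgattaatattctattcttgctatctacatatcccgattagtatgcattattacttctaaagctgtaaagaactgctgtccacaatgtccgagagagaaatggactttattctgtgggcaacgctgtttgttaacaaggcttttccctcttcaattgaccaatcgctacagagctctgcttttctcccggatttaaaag
Enpp4: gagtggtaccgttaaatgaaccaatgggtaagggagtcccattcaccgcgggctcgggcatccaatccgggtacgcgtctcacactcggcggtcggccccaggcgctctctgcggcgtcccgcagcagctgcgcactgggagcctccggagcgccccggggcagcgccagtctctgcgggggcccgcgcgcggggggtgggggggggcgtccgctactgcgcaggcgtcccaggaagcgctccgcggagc

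The 4 promoters, each with 250 bases before and 50 after the start, were searched on both strands for letters bound by factors of the IL-13 and fat cell pathways. The Stat6 motif, TTC and GAA with 4 bases between them, bound by the main transcription factor downstream of IL-13, was in none of the 4 and in 6.95% of all 32851 promoters in the table. The motif of other STAT factors, with 3 bases between the same ends, was in none of the 4 and in 8.3% of all. The PPAR-RXR motif, AGGTCA repeated after 1 base, was in none of the 4 and in 0.0396% of all. The C/EBP motif TTGCNNAA was found once, in Enpp1, as TTCCGCAA on the reverse strand starting 97 bases before the start, and in 10.8% of all promoters. Only these short windows were searched.

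Library totals were 15253031 to 18112087 counts, and 15447 to 16201 genes had at least 1 count per library. Fat cell markers (Adipoq, Fabp4, Plin1, Cebpa, Lpl, Cd36 and Cidec) summed to 26930 to 29103 CPM (counts scaled to equal library size) in IL-13 and 25634 to 27529 CPM in untreated libraries at day 6, against 373 to 395 CPM in IL-13 and 444 to 484 CPM in untreated libraries at day 0, where Cd36 had no count. All 6 preadipocyte markers had counts in every group and summed to 376 to 453 CPM in IL-13 and 391 to 489 CPM in untreated libraries at day 6, against 1283 to 1339 CPM in IL-13 and 1187 to 1275 CPM in untreated libraries at day 0. In untreated cells 4 of the 6 fell between day 0 and day 6 by edgeR's quasi-likelihood test, Pdgfrb by 2.65 (SE 0.06), Dlk1 by 4.12 (SE 0.16), Thy1 by 4.49 (SE 0.10) and Ly6a by 5.86 (SE 0.14) on the log2 scale. Pdgfra (log2 fold change -0.05, SE 0.08, adjusted p = 0.62) and Cd34 (0.47, SE 0.28, adjusted p = 0.124) did not pass. In these bulk libraries, fewer cells of a type and less RNA per cell cannot be told apart. An index of nuclear RNA was the mean log2 CPM of 21 tested nuclear-retained and splicing-related transcripts. This index was lower in every IL-13 than in every untreated library of the same day. Within each treatment it ran higher at day 6 than at day 0, with no overlap in IL-13 and a slight overlap in untreated libraries. It was 5.11 to 5.70 in IL-13 and 6.05 to 6.70 in untreated libraries at day 6, and 4.75 to 4.98 in IL-13 and 5.23 to 6.07 in untreated libraries at day 0. Day and deposited table coincide, so they cannot be told apart.

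At day 0 the chromosome 10 pair was far higher in IL-13 pre-treated than in untreated cells. Enpp3 had 348, 304, 315 and 344 CPM in the IL-13 libraries, against 37.2, 38.6, 35.2 and 34.4 CPM in the untreated libraries. The groups did not overlap, and every IL-13 library was far above every untreated one. The log2 fold change from edgeR's fit across all genes was 3.16 (SE 0.06), 8.93-fold, which put Enpp3 in place 39 from the top among 12274 tested genes. Enpp1 had 213, 187, 192 and 211 CPM in the IL-13 libraries, against 33.2, 40.0, 36.6 and 33.7 CPM in the untreated libraries. These groups did not overlap either, and the log2 fold change was 2.47 (SE 0.07), 5.55-fold, place 63 from the top. Adjusted for the nuclear RNA index, the log2 fold changes were 3.24 for Enpp3 and 2.38 for Enpp1. The index itself separated the IL-13 from the untreated libraries, so this adjustment and IL-13 cannot be fully told apart.

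The chromosome 17 pair was moderately lower in the same cells. Enpp4 had 18.2, 18.1, 17.6 and 21.0 CPM in the IL-13 libraries, against 23.9, 28.4, 26.3 and 26.5 CPM in the untreated libraries. Enpp5 had 68.7, 70.7, 67.4 and 71.8 CPM in the IL-13 libraries, against 96.5, 97.8, 89.1 and 92.4 CPM in the untreated libraries. For both genes the highest IL-13 library lay below the lowest untreated library. The log2 fold changes were -0.50 (SE 0.08) for Enpp4 and -0.45 (SE 0.05) for Enpp5, and -0.56 and -0.33 when adjusted for the nuclear RNA index. The same limit on that adjustment holds here.

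The remaining members were low at day 0. Enpp2, autotaxin, had 25, 19, 27 and 24 counts in the IL-13 libraries and 30, 25, 21 and 27 counts in the untreated libraries, or 1.46 ± 0.176 and 1.43 ± 0.156 CPM (SD, n = 4 each). The groups overlapped, with a log2 fold change of 0.01 (SE 0.20). At this depth a difference near or somewhat above that error could also go undetected. Enpp6 was close to undetected, with 1, 1, 2 and 1 counts in the IL-13 libraries at day 0 and 0, 1, 0 and 1 in the untreated ones. At day 6 it had 1 count over the IL-13 libraries and 2 over the untreated ones, and it stayed below the count filter in every comparison. Of the 5 members above the filter, 2 were higher and 2 lower at day 0 at an adjusted p under 0.05, beside 23.7% and 24.2% of all genes, 47.9% in either direction. The groups of libraries did not overlap for these 4, as for 20.9% of all genes in the higher and 19.5% in the lower direction. Nothing is read from these counts, because the members were chosen with the counts known.

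**Figure D1:**
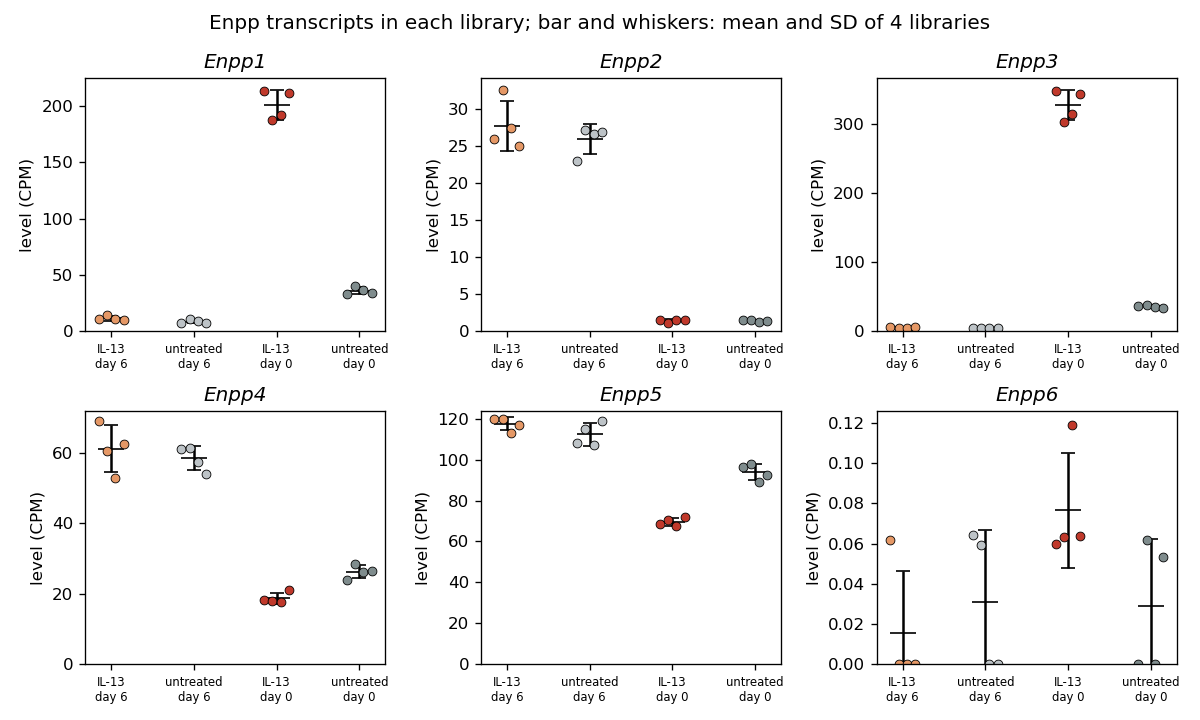
Level of each Enpp transcript in CPM (y axis, from 0, a different range per gene) in the 16 libraries, grouped on the x axis; points are libraries, bars and whiskers the mean and SD of 4 libraries, with whiskers cut at 0. Enpp1 and Enpp3 are highest in IL-13 cells at day 0, at 201 ± 13.3 and 328 ± 21.5 CPM, Enpp2 is near 0 at day 0 and at 27.7 ± 3.35 CPM in IL-13 and 25.9 ± 1.97 CPM in untreated cells at day 6, and Enpp6 reaches at most 0.119 CPM.

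The genes around the pairs were looked at after the members' values were known, taking all genes of the tables within 500 kb. Around Enpp1 and Enpp3 there were 15 other genes, of which 5 were tested at day 0, and 0 rose and 1 fell by edgeR's quasi-likelihood test (adjusted p under 0.05 over all genes). Ctgf, which encodes a secreted matrix-associated protein and is the tested neighbour nearest to Enpp1, fell in IL-13 cells to 82.0 CPM, against 194 CPM in untreated cells (log2 fold change -1.26, SE 0.08, adjusted p = 3.38e-08). Med23, which encodes a Mediator subunit and lies 27163 bases from Enpp3, was at 71.9 CPM in IL-13 and 76.0 CPM in untreated cells (-0.10, SE 0.05, adjusted p = 0.097). Arg1, arginase, known in macrophages as a target of IL-4 and IL-13, lies 72398 bases from Enpp3 and had 3 counts over the IL-13 libraries and 0 over the untreated ones. Stx7, Moxd1 and Akap7 did not pass the test. Around Enpp5 and Enpp4 all 4 tested neighbours fell, Slc25a27, Cyp39a1, Rcan2 and Runx2, from -1.91 (SE 0.34) for Slc25a27 to -0.66 (SE 0.10) for the bone transcription factor Runx2. Of all genes tested, 24.2% fell. Among neighbours below the filter, Clic5, 82775 bases from Enpp4, had 47 counts over the IL-13 and 13 over the untreated libraries. Pla2g7 had 4 and 16 counts.

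**Figure D2:**
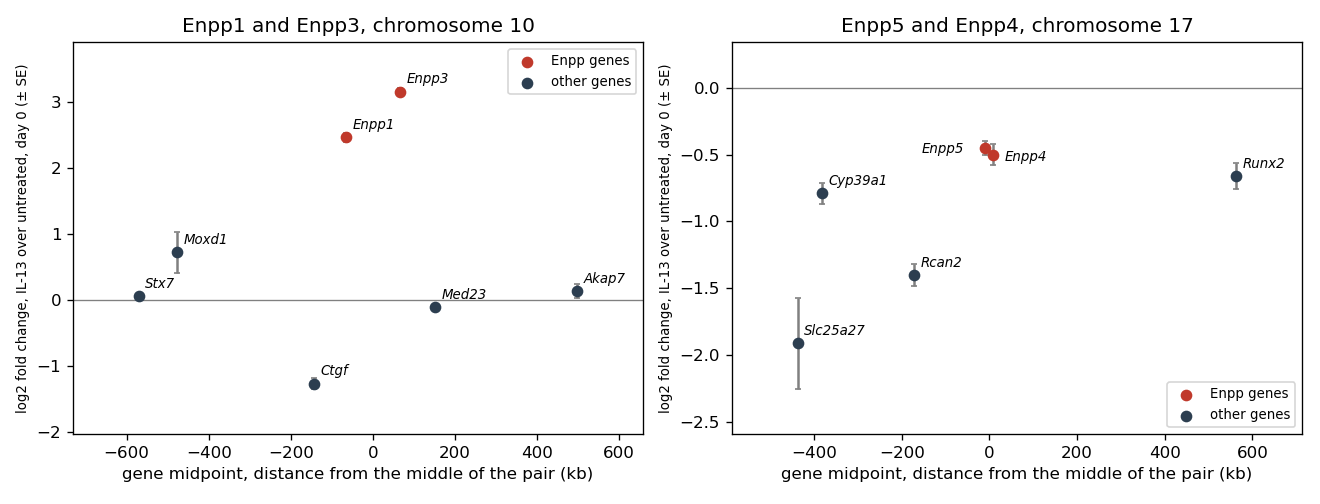
Log2 fold change of IL-13 over untreated cells at day 0 (y axis, whiskers SE) for the tested genes within 500 kb of the Enpp1 and Enpp3 pair (left) and of the Enpp5 and Enpp4 pair (right), against the distance of each gene's midpoint from the middle of the pair in kb (x axis). Enpp1 at 2.47 and Enpp3 at 3.16 stand above their tested neighbours, which run from -1.26 to 0.73. Enpp5 at -0.45 and Enpp4 at -0.50 lie among tested neighbours that are all negative.

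At day 6 the 5 members above the filter differed by at most 0.42 on the log2 scale between IL-13 pre-treated and untreated cells. Taken without pairing, the libraries of the groups overlapped for each. Enpp1 had 10.8, 14.8, 10.6 and 10.3 CPM in the IL-13 libraries, against 7.79, 10.6, 9.43 and 7.31 CPM in the untreated libraries. IL-13 library 2 was the highest of its group and untreated library 2 the highest of the other. In each same-numbered pair of libraries Enpp1 was higher in the IL-13 library. The log2 fold change of Enpp1 was 0.42 (SE 0.15), place 187 from the top, and 0.28 without IL-13 library 2. Enpp3 had 6.62, 5.64, 5.08 and 6.18 CPM in the IL-13 libraries, against 4.89, 4.87, 5.54 and 5.11 CPM in the untreated libraries, a log2 fold change of 0.22 (SE 0.12). For Enpp2 it was 0.11 (SE 0.10), for Enpp4 0.08 (SE 0.08) and for Enpp5 0.08 (SE 0.05). None of the 5 was called, beside 2.21% of all genes called higher and 4.34% lower, 6.55% in all. Nor did any of the 5 have libraries without overlap, as 7.21% of all genes did in the higher and 8.28% in the lower direction. With the replicate number as a block, which pairs the libraries of day 6, 1 was called, Enpp1 (log2 fold change 0.42), beside 22.8% of all genes. Nothing is read from these counts or from that call. The members were chosen with the counts known, and the pairing was taken from these same data.

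How far the response to IL-13 differed by day was estimated as an interaction, the log2 fold change at day 6 minus that at day 0. It was -2.96 (SE 0.12) for Enpp3 and -2.08 (SE 0.16) for Enpp1 on the log2 scale. For Enpp4 it was 0.56 (SE 0.11) and for Enpp5 0.50 (SE 0.07), and for Enpp2 0.07 (SE 0.20). By size of this term Enpp3 was number 65 and Enpp1 number 142 from the lowest of 13157 genes. Of the 5 members 2 were called higher and 2 lower, beside 3.12% and 4.95% of all genes, 8.06% in all, and nothing is read from these counts.

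Over differentiation the members parted. Enpp2 was 18.0-fold higher at day 6 than at day 0 in untreated cells, with 22.9, 27.1, 26.6 and 26.9 CPM at day 6, against 1.54, 1.54, 1.21 and 1.45 CPM at day 0. The libraries of the days stood far apart, and the log2 fold change was 4.17 (SE 0.12). In IL-13 pre-treated cells Enpp2 had 419, 524, 409 and 429 counts at day 6 and 25, 19, 27 and 24 counts at day 0, a log2 fold change of 4.24 (SE 0.12).

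Enpp4 was also higher at day 6, in untreated cells with 61.0, 61.3, 57.4 and 54.0 CPM at day 6 against 23.9, 28.4, 26.3 and 26.5 CPM at day 0. Its log2 fold change was 1.15 (SE 0.08) in untreated and 1.71 (SE 0.08) in IL-13 pre-treated cells, where day 0 had been lower. Enpp5 was at 112 ± 5.50 CPM at day 6 and 93.9 ± 3.98 CPM at day 0 in untreated cells, a log2 fold change of 0.26 (SE 0.05). In IL-13 pre-treated cells Enpp5 was at 118 ± 3.52 CPM at day 6 and 69.6 ± 1.96 CPM at day 0, a log2 fold change of 0.76 (SE 0.05). For both genes no library of day 6 overlapped one of day 0.

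Enpp1 and Enpp3 ran the other way. Enpp3 had 4.89, 4.87, 5.54 and 5.11 CPM at day 6 in untreated cells, against 37.2, 38.6, 35.2 and 34.4 CPM at day 0, a log2 fold change of -2.83 (SE 0.08). In IL-13 pre-treated cells, which started far higher, the log2 fold change of Enpp3 was -5.80 (SE 0.08), a 55.6-fold lower level at day 6, number 112 from the lowest of 13157 genes. For Enpp1 the log2 fold changes were -2.03 (SE 0.12) in untreated and -4.11 (SE 0.11) in IL-13 pre-treated cells. The 2 day comparisons have no library in common, but they were fitted together and share the estimate of spread. In each of them 3 of the 5 members were called higher and 2 lower, beside 40.6% and 40.3% of all genes in IL-13 pre-treated cells (80.8% in all) and 41.5% and 39.0% in untreated cells (80.5% in all). The libraries of the days did not overlap for any of the 5, as for 37.3% of all genes in the higher and 37.4% in the lower direction in IL-13 pre-treated cells, and 38.8% and 36.6% in untreated cells. Nothing is read from these counts either.

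**Figure D3:**
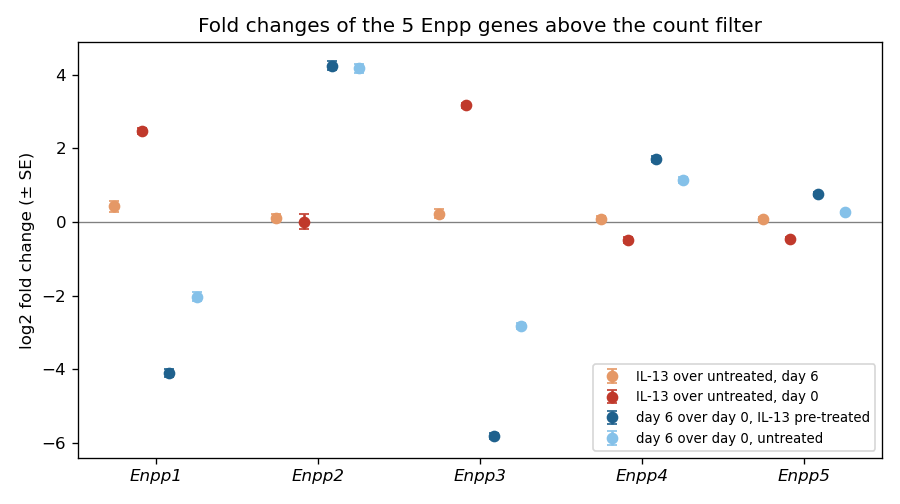
Log2 fold changes with their SE (y axis) of the 5 Enpp genes above the count filter (x axis) in the comparisons of IL-13 with untreated cells at each day and of day 6 with day 0 under each treatment. The IL-13 fold changes of Enpp1 and Enpp3 are 2.47 and 3.16 at day 0 and 0.42 and 0.22 at day 6, and Enpp2 is the member with the highest fold changes over time, 4.24 and 4.17.

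Levels of different members were compared with the authors' TPM, a unit that corrects for transcript length and library size. The 6 members together were at 130 ± 12.5 TPM in IL-13 and 134 ± 4.75 TPM in untreated cells at day 6, and at 296 ± 28.6 TPM in IL-13 and 129 ± 8.08 TPM in untreated cells at day 0. In IL-13 cells at day 0 the order was Enpp3 (174 ± 18.2 TPM), Enpp1 (62.5 ± 6.63), Enpp5 (45.7 ± 3.00), Enpp4 (13.1 ± 1.59), Enpp2 (0.805 ± 0.106) and Enpp6 (0.0376 ± 0.0124), with no overlap between neighbours in the order. In untreated cells at day 0 Enpp5 led at 71.4 ± 5.51 TPM, followed by Enpp3 (22.3 ± 1.51), Enpp4 (21.2 ± 1.44), Enpp1 (12.9 ± 0.789), Enpp2 (0.918 ± 0.132) and Enpp6 (0.0168 ± 0.0194). There the libraries of Enpp3 and Enpp4 overlapped, and the other neighbours did not. Enpp3 thus made up 58.7% ± 0.749 of the members' TPM sum in IL-13 and 17.3% ± 0.413 in untreated cells at day 0.

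At day 6 the order was the same after both treatments. Enpp5 was at 70.7 ± 5.30 TPM in IL-13 and 73.7 ± 3.35 TPM in untreated cells, and Enpp4 at 39.3 ± 5.77 TPM in IL-13 and 40.9 ± 3.19 TPM in untreated cells. Enpp2 came next, with 12.5 to 17.0 TPM in the IL-13 libraries and 14.3 ± 0.906 TPM in untreated cells. Enpp1 was at 3.32 ± 0.704 TPM in IL-13 and 2.74 ± 0.486 TPM in untreated cells, and Enpp3 at 2.86 ± 0.418 TPM in IL-13 and 2.70 ± 0.126 TPM in untreated cells. The libraries of these genes overlapped with each other in both groups. The share of the members' sum held by Enpp3 was 2.19% ± 0.177 in IL-13 and 2.02% ± 0.160 in untreated cells. TPM serves here to order the members and lacks the TMM scaling of the CPM values. In CPM, unlike in TPM, Enpp2, Enpp4 and Enpp5 were slightly higher in IL-13 than in untreated cells. For Enpp4 this was 61.2 ± 6.69 against 58.4 ± 3.42 CPM. Enpp1 and Enpp3 were higher in IL-13 cells in both units.

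**Figure D4:**
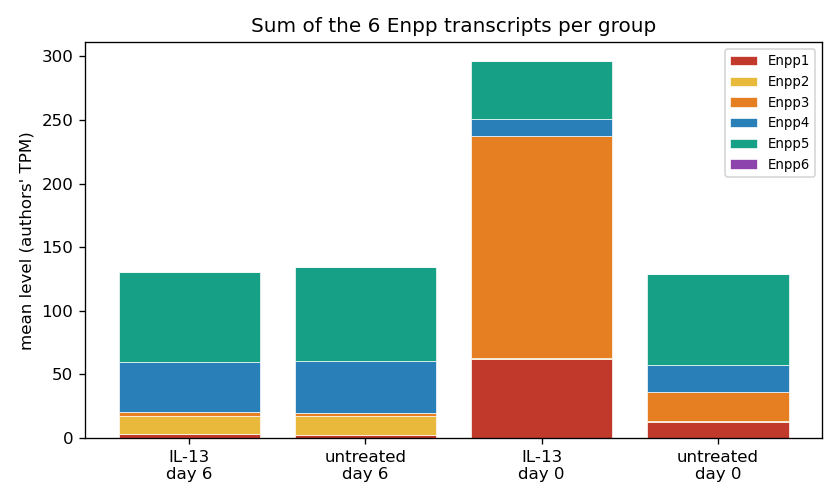
Mean level of the 6 Enpp transcripts in the authors' TPM (y axis, from 0), stacked for each group of 4 libraries (x axis). The sum is 296 TPM in IL-13 cells at day 0, where Enpp3 and Enpp1 fill most of the bar, and 129 to 134 TPM in the other groups, where Enpp5 is the highest member.

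The genes whose levels over the 16 libraries were most like each member's were found by Pearson's r of log2 CPM among 10696 named genes. These correlations are descriptions: the 16 points fall into 4 groups, and r mostly reflects the group means. For Enpp3 they were Samhd1, a dNTP hydrolase (r = 0.999), Emb, a membrane glycoprotein (0.997), and Ust, a sulfotransferase (0.995). For Enpp1 they were Znhit6 (0.993), Emb (0.993) and Samhd1 (0.991), so 2 of its 3 were those of Enpp3. Samhd1 was at 60.0 ± 2.49 CPM in IL-13 and 59.5 ± 1.93 CPM in untreated cells at day 6, and at 327 ± 14.8 CPM in IL-13 and 133 ± 6.12 CPM in untreated cells at day 0. For Enpp2 they were Tmem45b (0.999), the brown fat uncoupling protein gene Ucp1 (0.999) and Spon1 (0.998), each without a count at day 0. For Enpp4 they were B3galt1 (0.995), Sft2d2 (0.994) and the growth factor receptor gene Met (0.993). For Enpp5 they were the ATP-gated channel gene P2rx4 (0.982), Fam129a (0.978) and Rerg (0.974).

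The genes that act around the members were followed in 4 lists, with edgeR's quasi-likelihood test adjusted over all genes. In the list of LPA receptors and lysophospholipid enzymes, the setting of Enpp2, 5 of 20 tested genes rose with IL-13 at day 0 and 4 fell, beside 23.7% and 24.2% of all genes. The lists were chosen with earlier results known. The median log2 fold change was 0.03, against -0.01 over all genes. Plpp3, a membrane phosphatase that degrades LPA, rose to 246 ± 18.0 CPM in IL-13 cells, against 95.0 ± 3.40 CPM in untreated cells (log2 fold change 1.36, SE 0.06, adjusted p = 1.21e-10). Plppr2, a related protein, rose by 0.78 (SE 0.09) and Lpcat3, a lysophospholipid acyltransferase, by 0.44 (SE 0.06). The LPA receptor Lpar1 fell to 59.3 ± 6.13 CPM, against 94.2 ± 0.722 CPM in untreated cells (-0.68, SE 0.07, adjusted p = 1.13e-06), and Lpar4 fell by 0.67 (SE 0.19). Lpar6 (-0.32, SE 0.13, adjusted p = 0.0627) and Plpp1 (0.07, SE 0.06, adjusted p = 0.386) did not pass.

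In the list of enzymes, transporters and receptors for purines outside the cell, which Enpp1 and Enpp3 feed with AMP, 5 of 16 tested genes rose at day 0 and 3 fell, with a median of 0.09. The low-affinity adenosine receptor gene Adora2b rose to 17.3 ± 1.20 CPM in IL-13 cells, against 4.27 ± 0.296 CPM in untreated cells (log2 fold change 2.00, SE 0.10, adjusted p = 3.34e-10). The ATP-gated channel genes P2rx5 and P2rx4 fell by 0.65 (SE 0.11) and 0.42 (SE 0.07). Nt5e, which turns AMP into adenosine, had 10 counts over the IL-13 and 26 over the untreated libraries at day 0 and was below the filter. Entpd1, which degrades ATP and ADP, was at 9.79 ± 0.919 CPM in IL-13 and 11.2 ± 0.886 CPM in untreated cells (-0.21, SE 0.10, adjusted p = 0.0867).

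In the pyrophosphate and phosphate list 3 of 9 tested genes rose at day 0 and 3 fell, with a median of 0.02. Phospho1, a phosphatase of matrix vesicles, rose to 5.13 ± 0.83 CPM in IL-13 cells, against 2.11 ± 0.406 CPM in untreated cells (log2 fold change 1.27, SE 0.17, adjusted p = 3.43e-05). Mgp, an inhibitor of calcification, fell to 26.2 ± 2.16 CPM, against 84.4 ± 4.70 CPM in untreated cells (-1.70, SE 0.07, adjusted p = 1.7e-11). Spp1, osteopontin, fell by 0.56 (SE 0.05), and Ank, needed for the release of ATP and pyrophosphate from the cell, fell by 0.44 (SE 0.05). The phosphate carrier Slc20a1 did not pass (0.02, SE 0.09, adjusted p = 0.88). Among 8 partners of Enpp1 in cyclic GMP-AMP and insulin signalling 0 rose and 3 fell, with a median of -0.15. These were the insulin receptor substrate Irs1 (-0.73, SE 0.16), the insulin receptor Insr (-0.23, SE 0.07) and the kinase Tbk1 (-0.32, SE 0.11). These 3 were lost when adjusted for the nuclear RNA index, which left 0 calls among the partners, and without untreated library 3 the partners had 5 calls. On each day the index itself separated the IL-13 from the untreated libraries, so this adjustment and IL-13 cannot be fully told apart. Over the 4 lists 26 of 53 tested genes (49.1%) were called at day 0, beside 47.9% of all genes, and 10 when adjusted for the nuclear RNA index, a fit that called 440 genes higher and 394 lower over all genes, against 2912 and 2969 without it. With total count scaling the split over all genes was 1682 higher and 4523 lower, and the median log2 fold change -0.13, against -0.01.

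**Figure D5:**
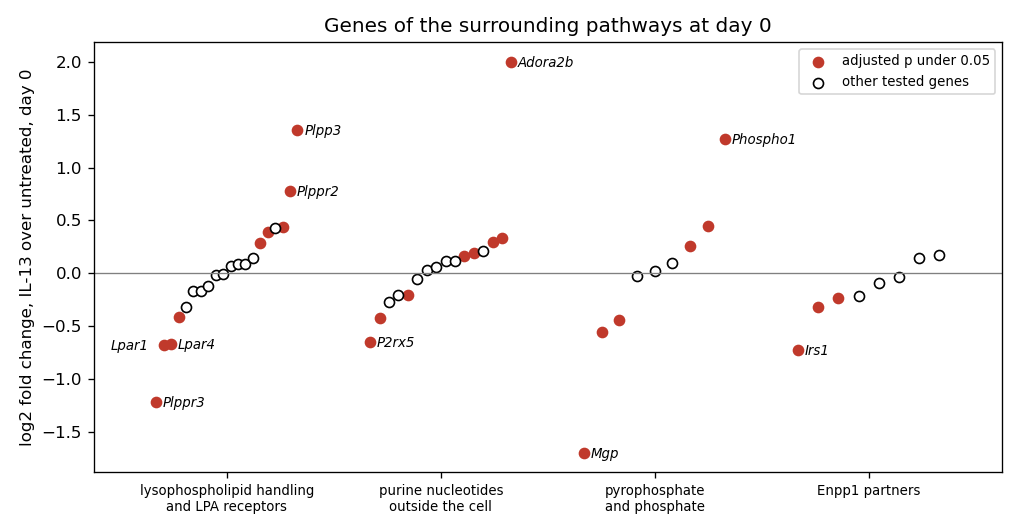
Log2 fold change of IL-13 over untreated cells at day 0 (y axis) for the tested genes of the 4 lists (x axis), sorted within each list; filled points passed an adjusted p under 0.05 and genes beyond 0.6 in size are named. Adora2b at 2.00, Plpp3 at 1.36 and Phospho1 at 1.27 are the highest points and Mgp at -1.70 is the lowest.

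At day 6 the 4 lists had 2 of 53 tested genes called between IL-13 pre-treated and untreated cells (3.77%), beside 6.55% of all genes, and 11 with the replicate block (20.8%), beside 22.8% of all genes. Lpcat3 was at 659 ± 40.5 CPM in IL-13 and 559 ± 29.0 CPM in untreated cells (log2 fold change 0.25, SE 0.06, adjusted p = 0.0412), and Tbk1 at 45.6 ± 4.63 CPM in IL-13 and 63.5 ± 6.92 CPM in untreated cells (-0.46, SE 0.09, adjusted p = 0.0183). Neither was called without untreated library 1, untreated library 2 or IL-13 library 2, and the lists had 1 call without IL-13 library 3 or 4 and 7 without IL-13 library 1. The IL-13 effect on Plpp3 differed between the days, with an interaction of -1.47 (SE 0.09, adjusted p = 2.34e-10), and that on Adora2b likewise (-2.74, SE 0.46, adjusted p = 0.000338), although Adora2b had only 10 counts in IL-13 and 17 in untreated libraries at day 6.

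Over differentiation of untreated cells 9 of 20 lysophospholipid genes rose and 9 fell, beside 41.5% and 39.0% of all genes. Lpar1 fell to 21.9 ± 1.53 CPM at day 6, against 94.2 ± 0.722 CPM at day 0 (log2 fold change -2.10, SE 0.07, adjusted p = 2e-16), while Lpar4 rose by 1.61 (SE 0.15) and Lpar6 by 0.77 (SE 0.13). Lpcat3 rose by 2.27 (SE 0.07), and Lpcat1 fell by 1.78 (SE 0.08). Of 19 purine genes 9 rose and 8 fell. The adenosine receptor gene Adora1 was at 148 ± 8.61 CPM at day 6 and had 3 counts over the 4 libraries at day 0, Nt5e was at 10.8 ± 1.26 CPM at day 6 against 0.361 ± 0.193 CPM at day 0 (4.88, SE 0.23, adjusted p = 4.42e-14), while Entpd5 rose by 2.10 (SE 0.06) and P2rx3 by 4.54 (SE 0.15). Of 10 pyrophosphate and phosphate genes 4 rose and 5 fell. Alpl, the phosphatase that breaks down pyrophosphate, rose to 53.4 ± 4.75 CPM, against 0.400 ± 0.165 CPM at day 0 (7.07, SE 0.18, adjusted p = 2.13e-18), Phospho1 rose by 5.97 (SE 0.16), while Mgp fell by 7.92 (SE 0.16) and Ank by 0.51 (SE 0.05). Of the Enpp1 partners 6 of 8 rose, among them Irs2 (2.47, SE 0.10) and Insr (1.93, SE 0.08), and 2 fell, Tmem173 (the STING gene, -2.90, SE 0.13) and Mb21d1 (the cyclic GMP-AMP synthase gene, -0.32, SE 0.12).

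Markers of other cells known for these members were measured beside them. Of 6 mast cell and basophil genes, for Enpp3, Fcer1a and Ms4a2 had no count in any library, and the list summed to 0.253 to 0.534 CPM in IL-13 and 0.205 to 0.801 CPM in untreated libraries at day 0. At day 6 the only member of that list with counts was Kit, at 15.2 ± 3.11 CPM in IL-13 and 17.0 ± 1.14 CPM in untreated cells. Of 6 genes of the oligodendrocyte lineage, for Enpp2, Enpp4 and Enpp6, Olig2 had no count in any library, and the list summed to 6.86 to 8.98 CPM in IL-13 and 7.31 to 7.89 CPM in untreated libraries at day 6, mostly Mbp, and to 1.5 to 2.53 CPM in IL-13 and 2.71 to 3.64 CPM in untreated libraries at day 0. Of 6 macrophage genes Adgre1 had no count in any library, and the list summed to 9.35 to 11.9 CPM in IL-13 and 6.72 to 9.10 CPM in untreated libraries at day 0. By edgeR's quasi-likelihood test Csf1r rose with IL-13 at day 0 (log2 fold change 1.46, SE 0.22, adjusted p = 9.33e-05) and Lyz2 fell (-0.69, SE 0.23, adjusted p = 0.0222). Cd14 and Cd68 did not pass. At day 6 the macrophage list summed to 2.91 to 4.09 CPM in IL-13 and 1.74 to 3.42 CPM in untreated libraries. The part of these markers in the results was not tested.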

How the data were processed

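Stranded mRNA libraries, per the labels' protocols, were made from 16 samples in 4 groups of 4. Per the file headers, the authors deposited for each library whole-number counts per gene, RPKM and TPM; RPKM was read only for the transcript length behind it, and the authors' CPM and comparison columns were not used. The genome build was mm10, per the submitters' processing notes; the sources used here do not give the aligner, counter, annotation or strand setting. The RefSeq and GENCODE M21 tables used here are of the same build.

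Counts were tested with edgeR 4.0.16 (R 4.3.3): TMM scaling, its default expression filter (minimum count 10, minimum total 15), robust quasi-likelihood fits, and Benjamini-Hochberg adjustment over all tested genes, called at 0.05. The IL-13 comparisons used the 8 libraries of their day, the day comparisons and the interaction all 16. Fold changes have IL-13 or day 6 on top, and each SE is the log2 value over the root of its F statistic. Levels are CPM on TMM-scaled totals of all 16 libraries, with a prior count of 2 on the log scale, as mean ± SD over 4 libraries. The script was tested on simulated data. Precision at these depths is limited by counting error for genes near 1 CPM. No pair of libraries in a group agreed within sampling noise (chi-square per degree of freedom of at least 4.06).

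The members, lists and tests were chosen with earlier results of these data known. Named genes were all members, up to 3 called genes with the smallest p per list in the IL-13 comparisons and in the untreated day comparison, a panel of 10, and the 3 genes most like each member; neighbours, and genes named to complete a count of 5 or fewer, were added after values were seen. The labels number replicates 1 to 4 in each group. At day 6 the deviations of same-numbered libraries correlated in all 4 pairs (r = 0.534, 0.18, 0.584 and 0.477 over 5528 genes), so the numbers were taken to pair the libraries there. At day 0 (r = 0.503, -0.294, 0.679 and 0.38) and between days (r from -0.209 to 0.642) only some pairs correlated, and no pairing was taken. Libraries of different number were not compared in this way. Alternatives were DESeq2 1.42.0, total count scaling, no filter, the replicate block, the nuclear RNA index as a covariate, all 16 libraries in 1 fit, and leaving out each library.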

Additional observations from a re-analysis of the deposited data

Results flagged for a closer look

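In 118 sets of 4 libraries, 1 library stood apart from the other 3 in 10, where chance flags about 1 in 20. The gap to the nearest library is given as a share of the group's range. Enpp1 in IL-13 cells at day 6 had 10.8, 14.8, 10.6 and 10.3 CPM (0.875), with library 2 apart. Enpp2 in untreated cells at day 6 had 22.9, 27.1, 26.6 and 26.9 CPM (0.879), with library 1 apart. Among pathway genes in IL-13 cells at day 0, library 4 stood apart for Adora2b (0.838) and Slc20a1 (0.854), library 3 for Entpd1 (0.840) and P2rx5 (0.873), and library 2 for P2rx3 (0.925). The others were Slc20a1 in IL-13 cells at day 6 (0.946), Entpd5 in untreated cells at day 6 (0.910) and Lpar4 in untreated cells at day 0 (0.897). A large share can come from a small range. Slc20a1 had 21.3, 21.3, 21.3 and 21.5 CPM there, Entpd5 162, 170, 162 and 163 CPM, and Lpar4 2.72, 2.65, 2.07 and 2.68 CPM.

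The response to IL-13 differed between day 6 and day 0 for 9 of the 57 tested genes of the 4 lists (15.8%), beside 8.06% of all genes, by the interaction term of edgeR's quasi-likelihood test. On the log2 scale it was -2.74 for Adora2b (adjusted p = 0.000338), -1.47 for Plpp3 (2.34e-10), -1.02 for Phospho1 (0.0116), -0.87 for Plppr2 (0.00407), -0.32 for Ppa1 (0.0453), 0.40 for P2rx4 (0.00942), 0.45 for Lpar1 (0.00726), 0.47 for Ank (5.56e-05) and 1.33 for Plppr3 (0.000462). Among the markers Plin1 (-1.71, adjusted p = 0.0149), Cd34 (-1.53, 0.00829), Dlk1 (-1.09, 0.0212), Lpl (0.40, 0.00351) and Cebpa (0.70, 4.25e-05) passed the same test. Among the neighbours of Enpp5 and Enpp4, Cyp39a1 (0.62, 0.00247) and Clic5 (-2.22, 0.00254) passed it too, although Clic5 had few counts at day 0. Counts were also few for Plin1 at day 0, with 28 over the IL-13 and 8 over the untreated libraries. Dlk1 had 46 counts over the IL-13 and 96 over the untreated libraries at day 6, and Cd34 had 51 to 187 over the libraries of a group.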

How the results depend on the processing

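The direction of the called members held under all alternatives run. Scaling by total count alone gave log2 fold changes at day 0 of 2.36 (Enpp1), 3.04 (Enpp3), -0.62 (Enpp4) and -0.57 (Enpp5), -0.00830 for Enpp5 at day 6, where all genes split 53 higher to 1032 lower (273 to 536 with TMM), -2.93 (Enpp3), 1.05 (Enpp4) and 0.15 (Enpp5) between days in untreated and 0.71 (Enpp5) in IL-13 cells, and an interaction of 0.56 for Enpp5 (all genes 516 to 498, with TMM 410 to 651). Adjusted for the nuclear RNA index the values were 0.27 for Enpp2 and -0.33 for Enpp5 at day 0, -0.19 for Enpp2 and 0.43 for Enpp4 at day 6, and 1.04 for Enpp4 between days in untreated cells; the cause was not tested. Without the count filter the Enpp5 interaction was 0.55, and leaving out 1 library gave 0.52 to 0.58. Of the 4 lists, 26 genes were called at day 0 and 10 with that adjustment (22 to 31 without 1 library). At day 6 there were 2 calls, 4 with DESeq2, 4 with total count scaling, 11 with the replicate block, 0 with the adjustment, and 0 to 7 without 1 library. The replicate block ended no member's call. By Spearman's rho 0 of the 3 nearest genes stayed the same for each of Enpp1, Enpp2, Enpp3, Enpp4 and Enpp5, and with total count scaling 1 did for Enpp2. Shares of the members' sum were the same from counts per length, which is no separate check, because library scaling cancels in a share. Depth limits Enpp6 and the day 0 level of Enpp2.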
